A study of Homo sapiens with 24 samples.

Results

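The 6 libraries described here are those of empty-vector HaCaT clones kept in 100 nM inorganic arsenic (iAs), 3 taken at week 29 and 3 at week 12 of the exposure, out of 24 libraries in the series. They were picked out by their labels, and the comparison was chosen with earlier results of these data known. HaCaT cells are human keratinocytes that grow indefinitely but do not form tumours. Each construct was carried by 3 clonal lines, kept in culture from the start to the end of the exposure. Which clone a replicate number stands for is not given. The other 18 libraries are vector clones at 0 nM and hsa-miR-186 clones at 100 and 0 nM, 3 libraries each at weeks 29 and 12. All groups share the cell line, transduction with a construct, cloning and regular passage in the same medium, and they were matched by passage. No library from before exposure was analysed here, so the comparison is between a later and an earlier time in arsenic. The same comparison between weeks was made in the clones at 0 nM.

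Inorganic arsenic binds thiol groups of proteins, is a skin carcinogen, and at low dose is used in culture for many months to model slow transformation of keratinocytes. Cells answer stress and growth factors in a first wave of immediate early genes, whose transcripts are made without new protein synthesis and are short-lived. Among them are the FOS and JUN subunits of the AP-1 transcription factor, EGR and KLF zinc finger factors and NR4A nuclear receptors. Feedback inhibitors of MAP kinase and NF-kB signalling are made in the same wave and end the signal.

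Levels are FPKM, fragments scaled to transcript length and to the mapped total of the library, as the authors deposited them. Changes are week 29 minus week 12 on log2(FPKM + 0.5) ± standard error (SE), which makes the change of a weakly expressed gene look smaller than it is. A gene passed the test at limma adjusted p under 0.05 over 14228 genes, those that averaged 0.5 FPKM or more across the series. Since the replicates are clones of 1 cell line, p-values measure the spread between cultures of that line. For each gene this spread, and with it the SE, was estimated from all 24 libraries in 8 groups, not from these 6 alone. Sums of FPKM per library ran from 712797 to 786389 at week 29 and from 723821 to 778678 at week 12, and read depth is unknown. All 6 keratinocyte markers, KRT5, KRT14, TP63, CDH1, ITGB4 and DSP, were present, with summed levels of 1945 to 3000 FPKM at week 29 and 2284 to 3812 FPKM at week 12. The 8 fibroblast markers summed to 5.16 to 6.34 FPKM at week 29 and 8.35 to 14.2 FPKM at week 12, with COL1A2 at 0 in all 6 libraries. FBN1 was at 2.00 to 6.08 FPKM, LUM at 0.377 to 5.49 FPKM and COL1A1 at 0.286 to 3.53 FPKM. The 7 melanocyte markers summed to at most 7.22 FPKM at week 29 and 11.2 FPKM at week 12, with TYR and SOX10 at 0 in all 6 libraries. MITF was at 1.94 to 9.57 FPKM and PMEL at 0.825 to 1.67 FPKM. The 7 immune markers summed to at most 10.3 FPKM at week 29 and 7.59 FPKM at week 12. The 5 endothelial markers summed to at most 14.3 FPKM at week 29 and 15.8 FPKM at week 12, nearly all of it CDH5. In bulk RNA, fewer cells of a type and less RNA per cell cannot be told apart.

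Of the 6 libraries, 2 stood apart. In week 29 replicate 3, levels fell off with GC content: genes over 60% GC had a median of −1.01 (log2) and genes under 35% GC a median of 0.55 relative to the week 12 mean. The other week 29 libraries lay at −0.15 and −0.03 over 60% GC. Week 12 replicate 3 lay at 0.40 over 60% GC, against −0.24 and −0.15 for the other week 12 libraries, and it held the lowest week 12 level of 16 of 19 immediate early genes. Across genes, which are not independent replicates, its correlation was 0.958 and 0.950 with the other week 12 libraries and 0.975 with week 29 replicate 1. Many list medians moved by over 1.5 times when 1 library was left out, and values without single libraries stand beside the lists described at length.

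**Figure D1:**
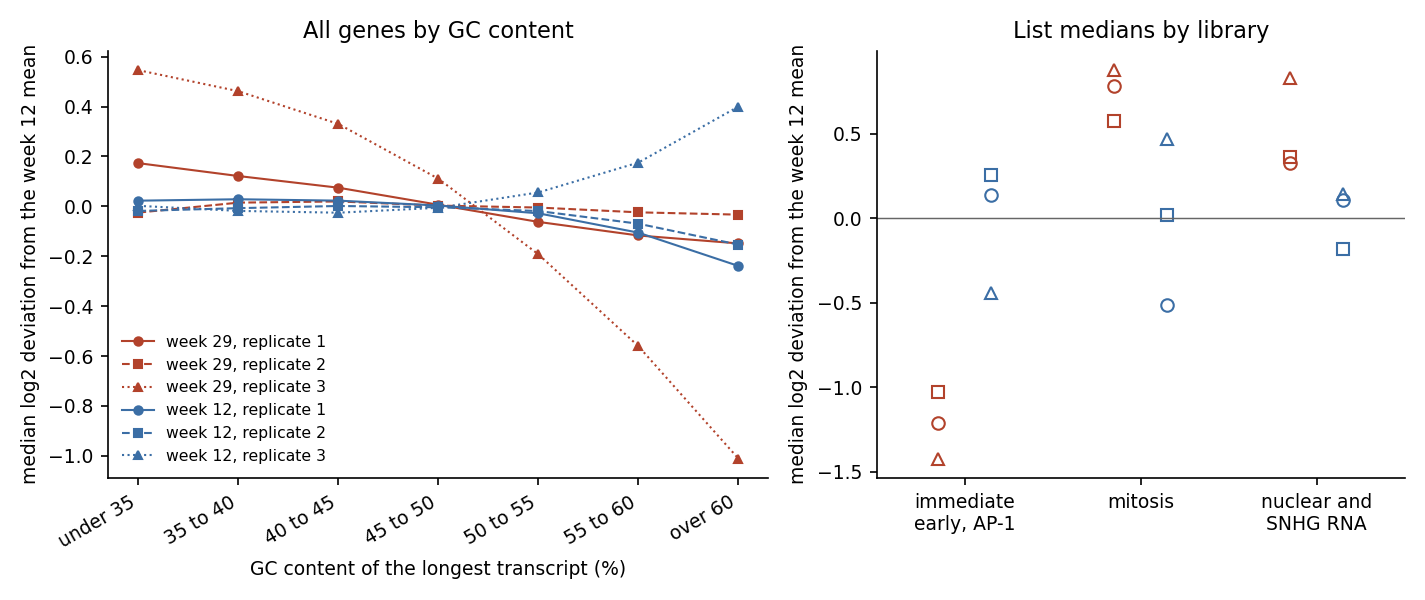
Median log2 deviation of each library from the week 12 mean. Left, all genes by GC content of the longest transcript: week 29 replicate 3 runs from 0.55 in genes under 35% GC to −1.01 in genes over 60% GC. Right, medians of 3 gene lists by library, with week 29 in red and week 12 in blue and the same symbols for replicates 1, 2 and 3 as on the left: the weeks do not overlap in any of the 3 lists.

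In the vector clones in arsenic, few transcripts passed the test as lower at week 29 than at week 12. Among them were immediate early transcripts and feedback genes made with them. KLF6, NR4A2, IER3, JUN and KLF4 fell, as did the NF-kB regulators NFKBIA, NFKBIZ and TNFAIP3, the MAP kinase phosphatase DUSP4 and the EGF receptor ligand HBEGF, by 2.12 to 3.63 fold. The genes that rose were the splicing kinase CLK1, the stress transcription factor DDIT3 and the acetyltransferase subunit NAA25. In all, 23 of 14228 genes fell (0.162%) and 3 rose (0.0211%), with no overlap between the weeks' libraries in any of the 26, and 2069 genes had an unadjusted p under 0.05. With a correction for GC content 27 genes fell and 9 rose, among them 18 of the 23 falls and 2 of the 3 rises. The number of calls depended on single libraries: it was 7, 74 and 8 without week 29 replicate 1, 2 or 3, and 9, 9 and 128 without week 12 replicate 1, 2 or 3, each with 1 group left at 2 libraries. The 26 kept their direction in each of these fits, and 7 passed in all 6, namely KLF6, CSRNP1, CCDC85B, PPP1R15A, IER3, ZFP36L1 and CLK1. Each of the other 19 missed the threshold without at least 1 of the 6 libraries. A fit of the 6 libraries alone, without the spread of the other groups, called 0 genes, with 1333 at an unadjusted p under 0.05. The main fit takes the libraries of both weeks as independent, although the clones were kept throughout. With the replicate number as a block, 338 genes passed, but the labels do not tie these numbers to clones.

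**Figure D2:**
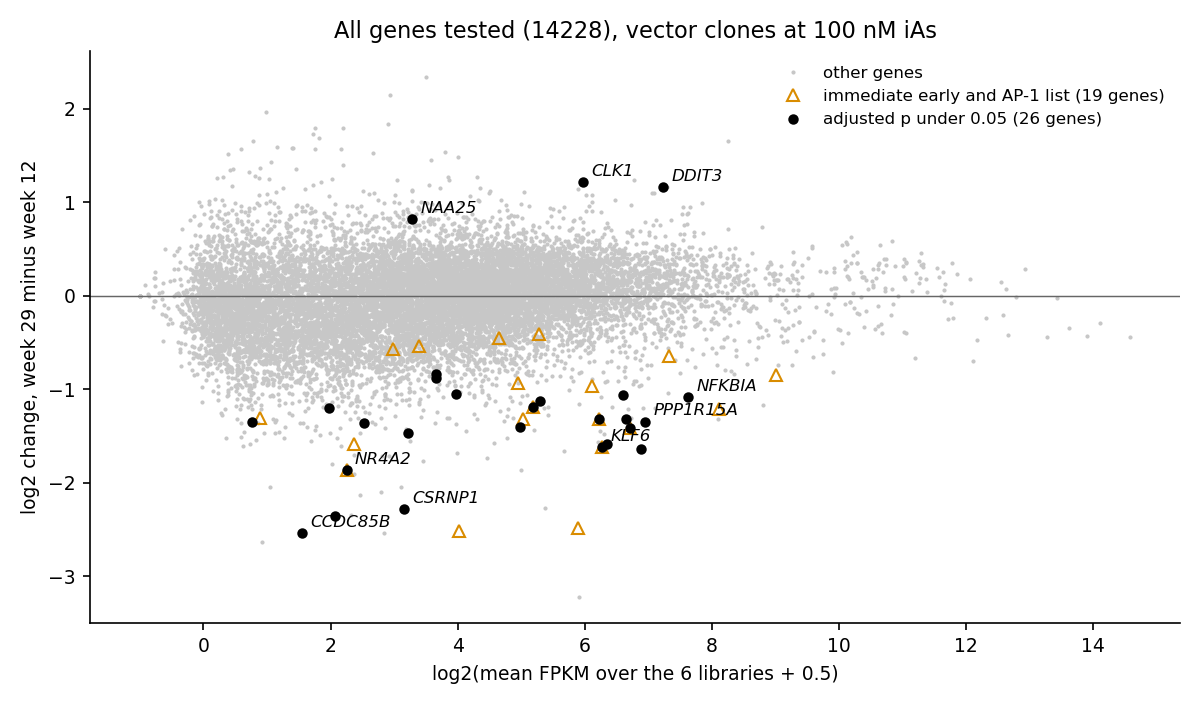
Change between weeks (y axis, log2) against mean level (x axis, log2 of FPKM + 0.5) for the 14228 genes tested. Black points are the 26 genes past the threshold, 23 below and 3 above 0, and open triangles the 19 immediate early and AP-1 genes, all below 0.

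KLF6, a zinc finger factor induced early by growth and stress signals (ENSG00000067082, chromosome 10, 3775996 to 3785281, minus strand, GRCh38), stood at 41.4, 35.5 and 35.05 FPKM at week 29, against 132.5, 114 and 102 FPKM at week 12. The weeks lay far apart, and the change of −1.62 ± 0.15 had the smallest p of all genes (limma, adjusted p = 1.23e-05). NR4A2, an orphan nuclear receptor, stood at 1.41, 1.59 and 1.525 FPKM at week 29, against 7.34, 8.99 and 4.73 FPKM at week 12 (−1.86 ± 0.31; limma, adjusted p = 0.00891). JUN, the AP-1 subunit, stood at 22.8, 24.1 and 18.2 FPKM at week 29, against 54.5, 53.01 and 42.4 FPKM at week 12 (−1.19 ± 0.21; limma, adjusted p = 0.0181). The weeks did not overlap in either gene, and week 12 replicate 3 was the lowest of the week 12 libraries in both. IER3, a survival factor of the early response, stood at 51.15, 40.96 and 35.8 FPKM at week 29, against 107, 89.15 and 123 FPKM at week 12 (−1.31 ± 0.17; limma, adjusted p = 0.000641), and here week 12 replicate 3 was the highest. KLF4, which drives late epidermal differentiation, stood at 46.3, 56.9 and 66.5 FPKM at week 29, against 171, 179 and 109 FPKM at week 12 (−1.41 ± 0.26; limma, adjusted p = 0.0199). With the GC correction KLF6, NR4A2 and IER3 passed. JUN did not, at −0.95 ± 0.22 (limma, adjusted p = 0.0745), nor did KLF4, at −1.24 ± 0.31 (limma, adjusted p = 0.110).

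All 19 immediate early and AP-1 genes of the list had a negative change, with a median of −1.21 beside −0.02 over all genes tested. Of the 19, 5 passed, where 0.162% of all genes tested fell. In 15 of the 19 the 3 libraries of week 29 lay below the 3 of week 12, where 8% of all genes tested did so. The remaining 14 members missed the threshold. FOSB, an AP-1 subunit, stood at 13.8, 31.3 and 10.8 FPKM at week 29, against 103, 127 and 68.7 FPKM at week 12 (−2.49 ± 0.52; limma, adjusted p = 0.0518). NR4A1, another nuclear receptor of the family, had 3.14, 3.70 and 3.28 FPKM at week 29, against 27.7, 49.7 and 7.20 FPKM at week 12 (−2.52 ± 0.75). EGR2, a zinc finger factor, had 1.71, 2.12 and 1.46 FPKM at week 29, against 10.9, 9.57 and 2.16 FPKM at week 12 (−1.58 ± 0.64). In both, week 12 replicate 3 was nearer to the week 29 libraries than to the other week 12 libraries. FOS itself was at 324, 434 and 339 FPKM at week 29, against 722, 805 and 482 FPKM at week 12 (−0.85 ± 0.39). ATF3, a stress-induced partner of JUN, was at 147, 162 and 184 FPKM at week 29, against 455, 429 and 279 FPKM at week 12 (−1.21 ± 0.31). The weeks overlapped for EGR1, EGR3, IER2 and JUNB. JUNB was the member whose change had the largest p, with 8.55, 8.24 and 2.15 FPKM at week 29, against 6.09, 9.36 and 9.97 FPKM at week 12 (−0.57 ± 0.54). The median ran from −1.31 to −1.12 when 1 library was left out. The number of members that passed was 9 without week 12 replicate 3, 6 without week 29 replicate 2 and 2 without any of the other 4 libraries, and it was 0 in the fit of the 6 libraries alone. The GC correction gave a median of −1.02 with 3 members past the threshold.

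Regulators of NF-kB, the inflammatory transcription factor, fell together with the early genes. NFKBIA encodes the inhibitor that holds NF-kB in the cytoplasm (ENSG00000100906, chromosome 14, 35401511 to 35404749, minus strand) and stood at 134, 133 and 107 FPKM at week 29, against 299, 332 and 183 FPKM at week 12 (−1.08 ± 0.19; limma, adjusted p = 0.0176). NFKBIZ encodes a nuclear relative that acts with NF-kB on a subset of its targets, and stood at 45.7, 70.04 and 56.6 FPKM at week 29, against 194, 197 and 146 FPKM at week 12 (−1.64 ± 0.25; limma, adjusted p = 0.00423). TNFAIP3, the ubiquitin-editing enzyme A20 that ends NF-kB signalling, stood at 47.6, 36.8 and 32.6 FPKM at week 29, against 179, 114 and 77.6 FPKM at week 12 (−1.59 ± 0.31; limma, adjusted p = 0.0399). Every week 29 library lay below every week 12 library for these 3 genes, and week 12 replicate 3 was the lowest of week 12 in each. Of the 25 measured genes of the cytokine and NF-kB list, which holds NFKBIA and TNFAIP3, these 2 fell and 0 rose. Of all genes tested 0.162% fell and 0.0211% rose. The list median was −0.23. That median ran from −0.42 without week 29 replicate 1 to 0.02 without week 12 replicate 1. The NF-kB subunit NFKB1, by contrast, stood at 36.3, 36.6 and 41.5 FPKM at week 29, against 34.45, 27.8 and 32.7 FPKM at week 12 (0.27 ± 0.13; limma, adjusted p = 0.344). IL6, a cytokine induced by NF-kB, was at 11.5, 17.5 and 9.22 FPKM at week 29, against 95.7, 82.3 and 29.00 FPKM at week 12 (−2.27 ± 0.48; limma, adjusted p = 0.0545) and passed with the GC correction (−2.36 ± 0.47; limma, adjusted p = 0.0400). It was lower in every week 29 library than in any week 12 library. CCL5, a chemokine, lay the other way with 2.27, 1.56 and 1.70 FPKM at week 29, against 0.530, 0.361 and 1.30 FPKM at week 12 (0.99 ± 0.37; limma, adjusted p = 0.251).

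Promoters of 7 genes that fell or rose are shown. NFKBIA, NFKBIZ and TNFAIP3 share an NF-kB motif there. PPP1R15A and DDIT3, which changed in opposite directions, hold different motifs, and JUN and KLF6 hold none of those searched. Sequences are RefSeq's for GRCh38.p14, 250 bases before to 50 after RefSeq's start, 5′ to 3′ on the gene's strand. Compared with the gene bounds used for the levels, that start lies inside the gene by 1223 bases for DDIT3, 280 for JUN, 72 for KLF6, 71 for TNFAIP3 and 29 for PPP1R15A. Capitals mark the motif matches, and positions are those of the first base of a match. The window of NFKBIA is chr14:35404700-35404999, minus strand, with its NF-kB match at −81 from the start.
NFKBIA: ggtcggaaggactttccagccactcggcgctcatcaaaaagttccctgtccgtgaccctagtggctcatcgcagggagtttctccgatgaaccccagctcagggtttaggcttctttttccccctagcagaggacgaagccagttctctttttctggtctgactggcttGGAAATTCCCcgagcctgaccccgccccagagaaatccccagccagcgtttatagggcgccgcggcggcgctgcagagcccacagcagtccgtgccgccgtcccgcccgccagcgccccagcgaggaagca
The window of NFKBIZ is chr3:101827740-101828039, plus strand, with its match at −223.
NFKBIZ: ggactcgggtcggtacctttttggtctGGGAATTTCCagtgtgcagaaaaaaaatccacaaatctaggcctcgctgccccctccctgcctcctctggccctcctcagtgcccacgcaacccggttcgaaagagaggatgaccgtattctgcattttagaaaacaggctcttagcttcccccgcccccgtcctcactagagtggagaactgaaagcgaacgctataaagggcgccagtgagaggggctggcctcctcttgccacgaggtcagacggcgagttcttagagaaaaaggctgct
The window of TNFAIP3 is chr6:137867009-137867308, plus strand, with matches at −67 and −55.
TNFAIP3: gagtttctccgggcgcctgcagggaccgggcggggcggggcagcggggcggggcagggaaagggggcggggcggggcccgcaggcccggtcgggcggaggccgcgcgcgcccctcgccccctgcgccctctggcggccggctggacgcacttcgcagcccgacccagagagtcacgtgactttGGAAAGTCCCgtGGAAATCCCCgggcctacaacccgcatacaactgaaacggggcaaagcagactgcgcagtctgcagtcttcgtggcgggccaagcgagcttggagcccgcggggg
The window of PPP1R15A is chr19:48872171-48872470, plus strand, with a cyclic AMP response element (CRE) at −58.
PPP1R15A: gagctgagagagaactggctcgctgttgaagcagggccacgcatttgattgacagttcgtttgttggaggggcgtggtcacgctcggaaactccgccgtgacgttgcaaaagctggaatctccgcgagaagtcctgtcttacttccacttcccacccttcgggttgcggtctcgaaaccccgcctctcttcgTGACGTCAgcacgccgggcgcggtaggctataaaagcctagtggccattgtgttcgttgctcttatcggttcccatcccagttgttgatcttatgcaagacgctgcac
The window of DDIT3 is chr12:57520465-57520764, minus strand, with an AP-1 match at −241.
DDIT3: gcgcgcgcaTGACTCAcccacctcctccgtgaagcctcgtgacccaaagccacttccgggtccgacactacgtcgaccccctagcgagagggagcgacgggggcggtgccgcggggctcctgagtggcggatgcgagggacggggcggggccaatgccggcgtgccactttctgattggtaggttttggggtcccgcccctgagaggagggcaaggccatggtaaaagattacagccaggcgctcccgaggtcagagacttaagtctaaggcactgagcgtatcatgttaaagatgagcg
The window of JUN is chr1:58783998-58784297, minus strand.
JUN: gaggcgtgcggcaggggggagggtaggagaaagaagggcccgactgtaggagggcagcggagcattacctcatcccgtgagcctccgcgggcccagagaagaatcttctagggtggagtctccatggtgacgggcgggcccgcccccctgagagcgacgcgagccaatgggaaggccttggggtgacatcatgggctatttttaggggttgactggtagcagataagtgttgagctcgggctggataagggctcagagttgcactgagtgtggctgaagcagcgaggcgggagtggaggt
The window of KLF6 is chr10:3785160-3785459, minus strand.
KLF6: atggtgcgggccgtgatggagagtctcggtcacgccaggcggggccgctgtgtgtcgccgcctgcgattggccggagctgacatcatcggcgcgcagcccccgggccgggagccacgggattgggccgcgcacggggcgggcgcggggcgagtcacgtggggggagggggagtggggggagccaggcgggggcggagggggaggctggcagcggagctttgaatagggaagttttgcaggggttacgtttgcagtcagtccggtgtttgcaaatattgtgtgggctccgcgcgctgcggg

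The motifs searched on both strands, none of which contains another, were AP-1 (TGANTCA), CRE (TGACGTCA), and NF-kB and CArG box by their usual consensus. Of the 23 genes that fell, 17 had a promoter in the table, and 6 of these (35.3%) held an NF-kB match, beside 1337 of 10322 promoters of genes tested (13%). The 6 were NFKBIA, NFKBIZ, TNFAIP3, BCOR, RNF207 and TNFRSF25. An AP-1 match was in 0 of the 17 (4.79% of all), a CRE in 1 (3.35% of all) and a CArG box in 0 (0.988% of all). Of 14 early gene promoters 0 held an NF-kB match and 1 each held AP-1 (FOSL2), CRE (JUND) and CArG box (EGR1). These are matches of letters in a short window and not sites of binding.

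In the EGF receptor and MAP kinase pathway 1 phosphatase and 1 ligand fell. DUSP4, a nuclear phosphatase that inactivates ERK, stood at 15.9, 18.8 and 13.7 FPKM at week 29, against 56.96, 55.3 and 25.2 FPKM at week 12 (−1.40 ± 0.27; limma, adjusted p = 0.0356). HBEGF, a heparin-binding ligand of the EGF receptor, stood at 54.2, 58.8 and 51.8 FPKM at week 29, against 181, 172 and 84.6 FPKM at week 12 (−1.32 ± 0.27; limma, adjusted p = 0.0417). For both, week 12 replicate 3 lay between the week 29 libraries and the other week 12 libraries. Of 23 measured genes of the pathway these 2 fell and 0 rose, beside 0.162% and 0.0211% of all genes tested, and the list median was −0.25. It ran from −0.41 without week 12 replicate 2 to −0.14 without week 29 replicate 3. SPRY2, an inhibitor of receptor signalling, was at 5.71, 4.87 and 6.16 FPKM at week 29, against 18.3, 16.35 and 9.89 FPKM at week 12 (−1.30 ± 0.27; limma, adjusted p = 0.0545) and passed with the GC correction (limma, adjusted p = 0.0445). DUSP1, another phosphatase of MAP kinases, had 53.7, 64.7 and 58.8 FPKM at week 29, against 168, 185.5 and 102 FPKM at week 12 (−1.31 ± 0.30; limma, adjusted p = 0.0687). In SPRY2 and DUSP1, too, the weeks did not overlap and week 12 replicate 3 was the lowest of week 12. The receptor EGFR itself was at 151, 184 and 171 FPKM at week 29, against 135, 133 and 165.5 FPKM at week 12 (0.23 ± 0.21; limma, adjusted p = 0.599). DUSP6, a phosphatase of ERK, was at 113, 139 and 95.6 FPKM at week 29, against 132, 170.5 and 112 FPKM at week 12 (−0.25 ± 0.24; limma, adjusted p = 0.620). The weeks overlapped in EGFR and DUSP6.

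Stress genes of the integrated stress response and the unfolded protein response split in direction. DDIT3, the transcription factor CHOP that is made when translation initiation is held back (ENSG00000175197, chromosome 12, 57516588 to 57521737, minus strand), rose, with 209, 201 and 212 FPKM at week 29, against 95.3, 79.4 and 104.5 FPKM at week 12 (1.16 ± 0.20; limma, adjusted p = 0.0122). PPP1R15A, also called GADD34, recruits the phosphatase that releases this hold (ENSG00000087074, chromosome 19, 48872392 to 48876057, plus strand), and it fell, with 75.8, 79.15 and 55.35 FPKM at week 29, against 178, 176 and 176 FPKM at week 12 (−1.35 ± 0.17; limma, adjusted p = 0.000424). The weeks did not overlap in either, and the 3 week 12 levels of PPP1R15A were nearly equal. Both passed with the GC correction. Exons of DDIT3 share 355 bases with MARS1 on the opposite strand (27.2% of its exonic bases). MARS1 was at 106.5, 94.6 and 107 FPKM at week 29, against 81.9, 64.97 and 102 FPKM at week 12 (0.33 ± 0.22). Of the 22 measured genes of both responses 1 rose and 1 fell, beside 0.0211% and 0.162% of all genes tested. In the list 17 changes lay above 0, with a median of 0.27. The median ran from 0.11 without week 12 replicate 2 to 0.54 without week 12 replicate 3. ATF4, the factor that drives DDIT3, was at 483, 529.9 and 450.2 FPKM at week 29, against 401, 411 and 471 FPKM at week 12 (0.19 ± 0.16; limma, adjusted p = 0.570). TRIB3, a pseudokinase and target of both, had 209, 217 and 186 FPKM at week 29, against 82.1, 44.8 and 202 FPKM at week 12 (1.16 ± 0.66; limma, adjusted p = 0.403). The chaperone HSPA5 had 1975, 1890 and 2490 FPKM at week 29, against 1087, 1001 and 2519 FPKM at week 12 (0.59 ± 0.42; limma, adjusted p = 0.505). In TRIB3 and HSPA5, week 12 replicate 3 reached the level of week 29 and the other 2 week 12 libraries were far below. DDIT4, an inhibitor of mTORC1 outside the list, was at 159, 154 and 146 FPKM at week 29, against 54.2, 63.03 and 79.5 FPKM at week 12 (1.23 ± 0.26; limma, adjusted p = 0.0519) and passed with the GC correction (limma, adjusted p = 0.0172). Its exons share 847 bases with an antisense gene (41.2% of its exonic bases). That gene was at 204, 220 and 126 FPKM at week 29, against 71.0, 87.7 and 92.1 FPKM at week 12. With the strand setting of the counting unknown, their levels cannot be told apart with certainty.

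CLK1, a kinase that phosphorylates SR splicing factors (ENSG00000013441, chromosome 2, 200853009 to 200864744, minus strand), rose the most of the genes past the threshold, with 72.3, 81.03 and 109 FPKM at week 29, against 43.2, 38.3 and 30.2 FPKM at week 12 (1.21 ± 0.17; limma, adjusted p = 0.00190). It was the 1 member of 32 splicing regulators that rose, and 0 fell, beside 0.0211% and 0.162% of all genes tested. The list median was −0.08, from −0.25 without week 12 replicate 3 to −0.03 without week 29 replicate 1. Among the others, the SR protein gene SRSF5 was at 187, 252 and 245.5 FPKM at week 29, against 415, 497 and 298 FPKM at week 12 (−0.80 ± 0.21; limma, adjusted p = 0.133). SRRM2, a scaffold of nuclear speckles, was at 78.8, 101 and 75.5 FPKM at week 29, against 149, 130.4 and 125 FPKM at week 12 (−0.67 ± 0.16; limma, adjusted p = 0.0766). Both were lower in every week 29 library than in any week 12 library. NAA25, a subunit of the NatB N-terminal acetyltransferase, was at 11.9, 10.7 and 13.2 FPKM at week 29, against 7.09, 6.05 and 6.42 FPKM at week 12 (0.82 ± 0.17; limma, adjusted p = 0.0417). It missed the threshold with the GC correction (limma, adjusted p = 0.0926).

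Among the genes past the threshold, the largest falls by log2 change were in genes of low level. CCDC85B, a coiled-coil protein, was at 0.292, 0.469 and 0.329 FPKM at week 29, against 4.596, 4.95 and 4.01 FPKM at week 12 (−2.54 ± 0.30; limma, adjusted p = 0.000195). CSRNP1, a nuclear protein, was at 3.22, 2.63 and 1.87 FPKM at week 29, against 14.2, 14.2 and 14.1 FPKM at week 12 (−2.28 ± 0.24; limma, adjusted p = 3.88e-05). Its week 12 libraries were nearly equal and its week 29 libraries far below them. The pseudogene ATP5MC1P6, a near copy of other sequence and so uncertain, was at 0.391, 1.42 and 0.880 FPKM at week 29, against 8.84, 6.35 and 4.42 FPKM at week 12 (−2.35 ± 0.40). It lies inside SERPINB5, whose own change was −0.33 ± 0.30. At higher levels, the mRNA decay factor ZFP36L1 was at 60.6, 59.8 and 67.4 FPKM at week 29, against 151, 120.3 and 123 FPKM at week 12 (−1.06 ± 0.15; limma, adjusted p = 0.00139). The survival kinase PIM1 was at 25.75, 25.5 and 21.8 FPKM at week 29, against 56.3, 51.6 and 53.1 FPKM at week 12 (−1.13 ± 0.19; limma, adjusted p = 0.0122). Both are known as early response genes, and both passed with the GC correction.

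The other falls were in genes of varied roles. NEIL1, a glycosylase that removes oxidised bases from DNA, was at 2.045, 3.23 and 2.87 FPKM at week 29, against 6.46, 9.88 and 6.97 FPKM at week 12 (−1.36 ± 0.27; limma, adjusted p = 0.0399). It was the only one of 34 DNA repair genes past the threshold, where 0.162% of all genes tested fell. With the GC correction it missed the threshold at −0.99 ± 0.31 (limma, adjusted p = 0.208). MAN2C1, with which it shares 26.4% of its exonic bases on the opposite strand, was at −0.49 ± 0.22. SGSH, a lysosomal sulfatase of heparan sulfate, was at 4.83, 6.85 and 2.42 FPKM at week 29, against 14.95, 12.9 and 11.2 FPKM at week 12 (−1.47 ± 0.28; limma, adjusted p = 0.0353). RNF207, a RING finger protein, was at 9.55, 12.8 and 7.49 FPKM at week 29, against 20.35, 20.4 and 21.3 FPKM at week 12 (−1.05 ± 0.17; limma, adjusted p = 0.00608). In both, no week 29 library reached the level of week 12. BCOR, a transcriptional corepressor, averaged 8.56 ± 0.828 FPKM at week 29 and 15.7 ± 1.16 FPKM at week 12 (SD, n = 3 each), a change of −0.84 ± 0.17. TNFRSF25, a death receptor, averaged 1.94 ± 0.7415 FPKM at week 29 and 4.97 ± 0.697 FPKM at week 12 (SD, n = 3 each), a change of −1.20 ± 0.24. RHOB, a small GTPase, averaged 8.34 ± 0.228 FPKM at week 29 and 15.8 ± 1.86 FPKM at week 12 (SD, n = 3 each), a change of −0.88 ± 0.18, and missed the threshold with the GC correction (limma, adjusted p = 0.167). The last of the 23 was an antisense gene that is not named, since the strand setting of the counting is not known. The 23 falls had a median GC content of 56.1%, the 3 rises 39.5% and all genes tested 47.9%, so the falls lie on the side of GC content that was low in week 29 replicate 3.

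**Figure D3:**
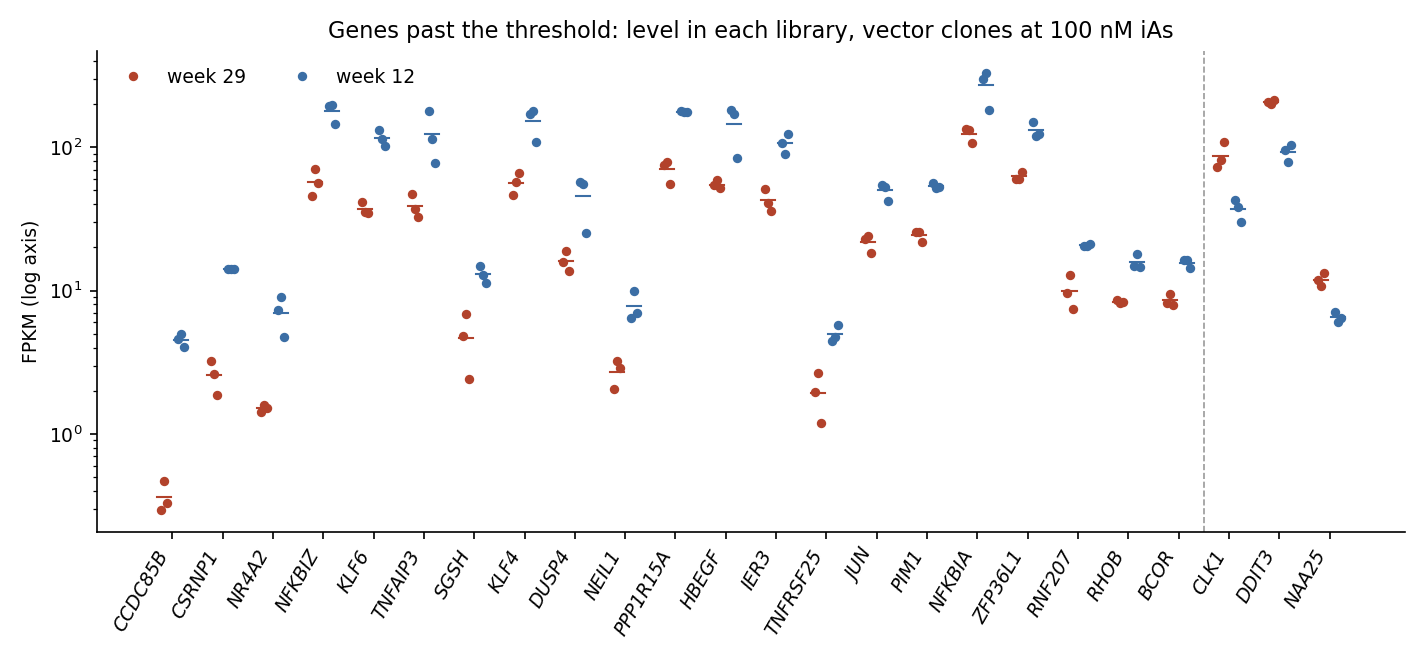
FPKM (log axis) of the 24 protein-coding genes past the threshold in each library, with week 29 in red to the left of week 12 in blue and bars at the means of 3. The 21 genes left of the dashed line fell and the 3 right of it rose, and no gene has overlapping weeks.

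The falls were not limited to clones in arsenic. Between the same weeks in vector clones at 0 nM, 117 genes fell (0.822%) and 12 rose (0.0843%). In miR-186 clones at 100 nM 721 fell (5.07%) and 1011 rose (7.11%), and in miR-186 clones at 0 nM 189 fell (1.33%) and 223 rose (1.57%). These comparisons share no library with that of vector clones in arsenic. Of the 23 falls, 17 also fell in vector clones at 0 nM (73.9% of the 23 and 14.5% of the 117), 21 in miR-186 clones at 100 nM (91.3% and 2.91%) and 20 in miR-186 clones at 0 nM (87% and 10.6%). In all 4 comparisons 17 of the 23 fell, and 22 lay below 0. KLF6 changed by −1.62 ± 0.15 in vector clones in arsenic, −2.02 ± 0.15 in vector clones at 0 nM, −1.89 ± 0.15 in miR-186 clones at 100 nM and −1.72 ± 0.15 in miR-186 clones at 0 nM. The exception was NEIL1, at 0.45 ± 0.27 in vector clones at 0 nM, −0.82 ± 0.27 in miR-186 clones at 100 nM and −0.68 ± 0.27 in miR-186 clones at 0 nM. Of the 3 rises, DDIT3 alone rose in all 4 comparisons. CLK1 was at 0.25 ± 0.17 in vector clones at 0 nM, where it did not pass, and rose by 1.16 ± 0.17 and 0.96 ± 0.17 in miR-186 clones at 100 and 0 nM. All 19 early genes lay below 0 in all 4 comparisons, with medians of −1.21 in vector clones in arsenic, −1.55 in vector clones at 0 nM, −1.64 in miR-186 clones at 100 nM and −1.72 at 0 nM.

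**Figure D4:**
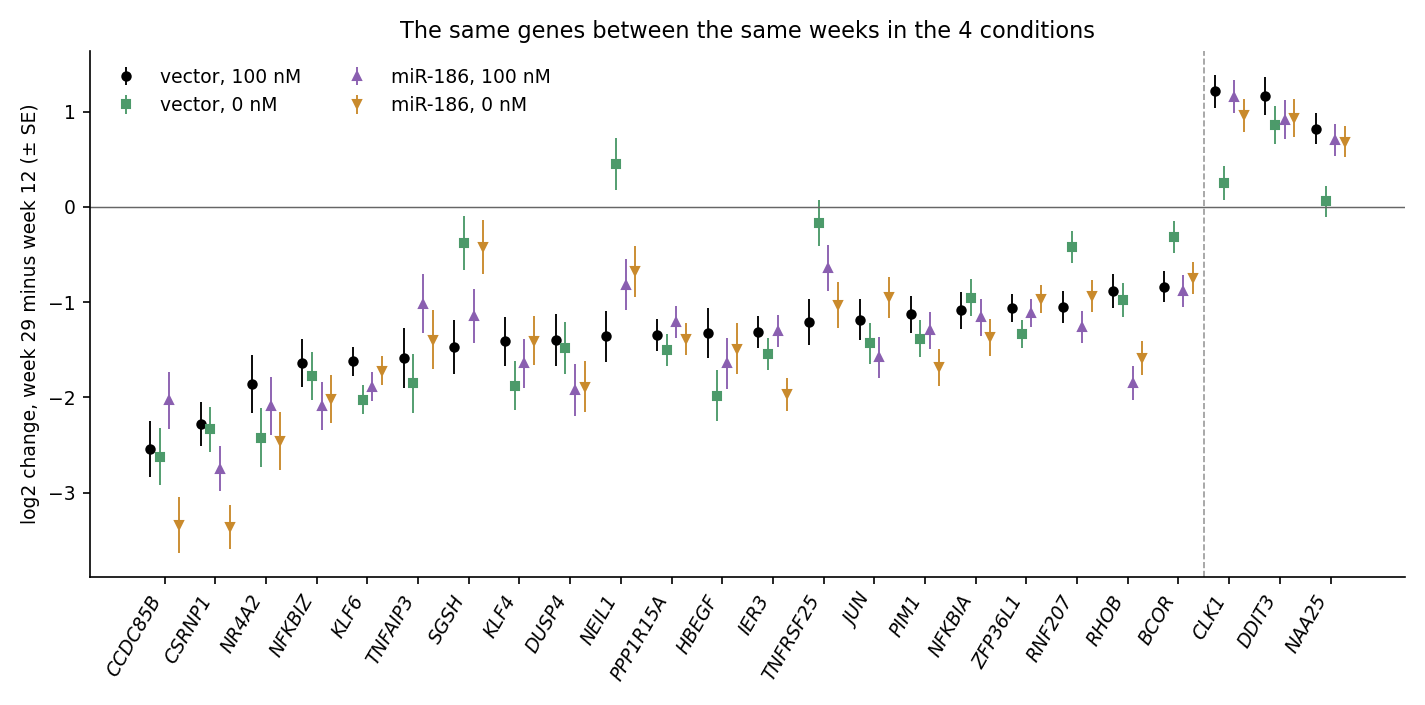
Change between weeks (log2 ± SE, 3 libraries a group) of the same 24 genes in vector clones at 100 nM (black), vector clones at 0 nM (green) and miR-186 clones at 100 nM (violet) and 0 nM (ochre). The SE of a gene rests on a spread shared by all 8 groups. It is therefore equal in the 4 comparisons and does not show the spread of each condition. All but NEIL1 have the same sign in the 4 comparisons.

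Whether the change between weeks in arsenic differed from that at 0 nM was tested directly, as a difference of changes within the same fit. In vector clones 0 of 14228 genes passed in limma, with a smallest adjusted p = 0.215 and 1058 genes at an unadjusted p under 0.05, and 0 passed with the GC correction, with 620 under 0.05. The genes with the smallest p were SOX9, a transcription factor of hair follicle and other progenitors, and KDM6A, a histone H3K27 demethylase. In arsenic SOX9 stood at 11.03, 9.85 and 10.8 FPKM at week 29, against 13.8, 10.2 and 9.925 FPKM at week 12 (−0.08 ± 0.17), and at 0 nM it fell by 1.40 on the log2 scale. The difference was 1.32 ± 0.24 (limma, adjusted p = 0.215). In arsenic KDM6A stood at 33.4, 31.9 and 36.4 FPKM at week 29, against 32.1, 23.7 and 29.05 FPKM at week 12 (0.27 ± 0.17), and at 0 nM it fell by 0.99 on the log2 scale. The difference was 1.26 ± 0.24 (limma, adjusted p = 0.215). Both had overlapping weeks in arsenic and passed the test between weeks at 0 nM. In the other direction, NEIL1 had a difference of −1.81 ± 0.38, the pseudogene GUSBP11 −1.31 ± 0.27 and the paraspeckle RNA NEAT1 −1.39 ± 0.35 (limma, adjusted p = 0.428, 0.428 and 0.635). Against miR-186 clones at 100 nM, a contrast added after the data were seen, 0 genes passed in limma, with a smallest adjusted p = 1 and 362 genes at an unadjusted p under 0.05.

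Mitosis genes lay higher at week 29 as a list, though no single member passed. Of 51 measured genes 49 had a change above 0, with a median of 0.72, and in 24 the week 29 libraries lay above all those of week 12, where 8.88% of all genes tested did so. CCNA2, the cyclin of S and G2 phase, was at 18.4, 13.4 and 28.2 FPKM at week 29, against 5.03, 8.05 and 11.55 FPKM at week 12 (1.24 ± 0.44; limma, adjusted p = 0.236). NDC80 of the outer kinetochore was at 24.7, 23.96 and 29.85 FPKM at week 29, against 7.74, 13.9 and 18.8 FPKM at week 12 (1.01 ± 0.37; limma, adjusted p = 0.242). KIF14, a motor protein of cytokinesis, was at 10.7, 8.23 and 12.75 FPKM at week 29, against 3.59, 4.275 and 7.89 FPKM at week 12 (0.99 ± 0.37; limma, adjusted p = 0.244). In each of these the week 29 libraries lay above those of week 12, and week 12 replicate 1 was the lowest. CDC20, an activator of the anaphase-promoting complex, was at 129.5, 101.5 and 104 FPKM at week 29, against 32.5, 40.1 and 123 FPKM at week 12 (1.02 ± 0.45), and there week 12 replicate 3 was at the level of week 29. The week 12 clones differed among themselves: the list median by library was 0.78, 0.58 and 0.88 at week 29, against −0.51, 0.02 and 0.47 at week 12, and week 12 replicate 1 was the lowest of the week 12 libraries in 49 of the 51. Without it the median was 0.47, and without the others in turn 0.68 to 0.98. In the other comparisons between weeks the median of the list was 0.17 in vector clones at 0 nM, 0.22 in miR-186 clones at 100 nM and −0.18 at 0 nM. Of 36 genes of replication and the G1/S transition 18 were above 0, the median was 0.01 and 0 passed. The cell cycle inhibitor CDKN1A, a p53 target, was at 48.45, 33.8 and 28.4 FPKM at week 29, against 99.96, 67.3 and 78.4 FPKM at week 12 (−1.16 ± 0.24; limma, adjusted p = 0.0518).

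Host genes of small nucleolar RNAs and genes of translation also lay higher, with no member past the threshold. SNHG1 was at 366, 384 and 637 FPKM at week 29, against 124, 106 and 218 FPKM at week 12 (1.65 ± 0.36; limma, adjusted p = 0.0575). SNHG8 was at 168, 209.8 and 371 FPKM at week 29, against 133, 128 and 156 FPKM at week 12 (0.77 ± 0.26; limma, adjusted p = 0.226). Of 14 nuclear and small nucleolar host RNAs 7 lay higher without overlap, beside 8.88% of all genes tested. The median was 0.52, and it ran from 0.32 without week 29 replicate 3 to 0.60 without week 29 replicate 1. NEAT1, which builds paraspeckles, was at 104, 120 and 135 FPKM at week 29, against 219.8, 174 and 117 FPKM at week 12 (−0.47 ± 0.25), with overlapping weeks. Of 50 cytosolic ribosomal protein genes 17 lay higher without overlap, again beside 8.88% of all genes. The median was 0.18, and it ran from 0.10 without week 12 replicate 1 to 0.26 without week 12 replicate 3. RPL14, the member with the smallest p, was at 499.7, 557 and 571.5 FPKM at week 29, against 409.7, 415.5 and 436 FPKM at week 12 (0.37 ± 0.15; limma, adjusted p = 0.274). Week 29 replicate 3 held the highest week 29 level in 12 of the 14 and 26 of the 50. The medians were 0.23 for 41 mitochondrial ribosome genes, 0.22 for 38 nuclear genes of the respiratory chain and 0.18 for 32 proteasome genes. Without week 12 replicate 3 these 3 medians were 0.35, 0.30 and 0.31, and without week 12 replicate 1 the last 2 were 0.10 and 0.11. All 13 mRNAs of the mitochondrial genome lay below 0, with a median of −0.43 and 0 past the threshold. Of these 2 lay lower without overlap, beside 8% of all genes tested. The median was −0.23 without week 12 replicate 1 and −0.24 without week 29 replicate 1, and −0.59 without week 12 replicate 3. MT-CYB, cytochrome b, was at 2744, 3626 and 3731 FPKM at week 29, against 6075, 5948 and 4334 FPKM at week 12 (−0.69 ± 0.27; limma, adjusted p = 0.260). Mitochondrial transcripts held 12.4% to 14.8% of FPKM at week 29 and 13.7% to 21.4% at week 12, with week 12 replicate 3 the lowest of week 12.

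**Figure D5:**
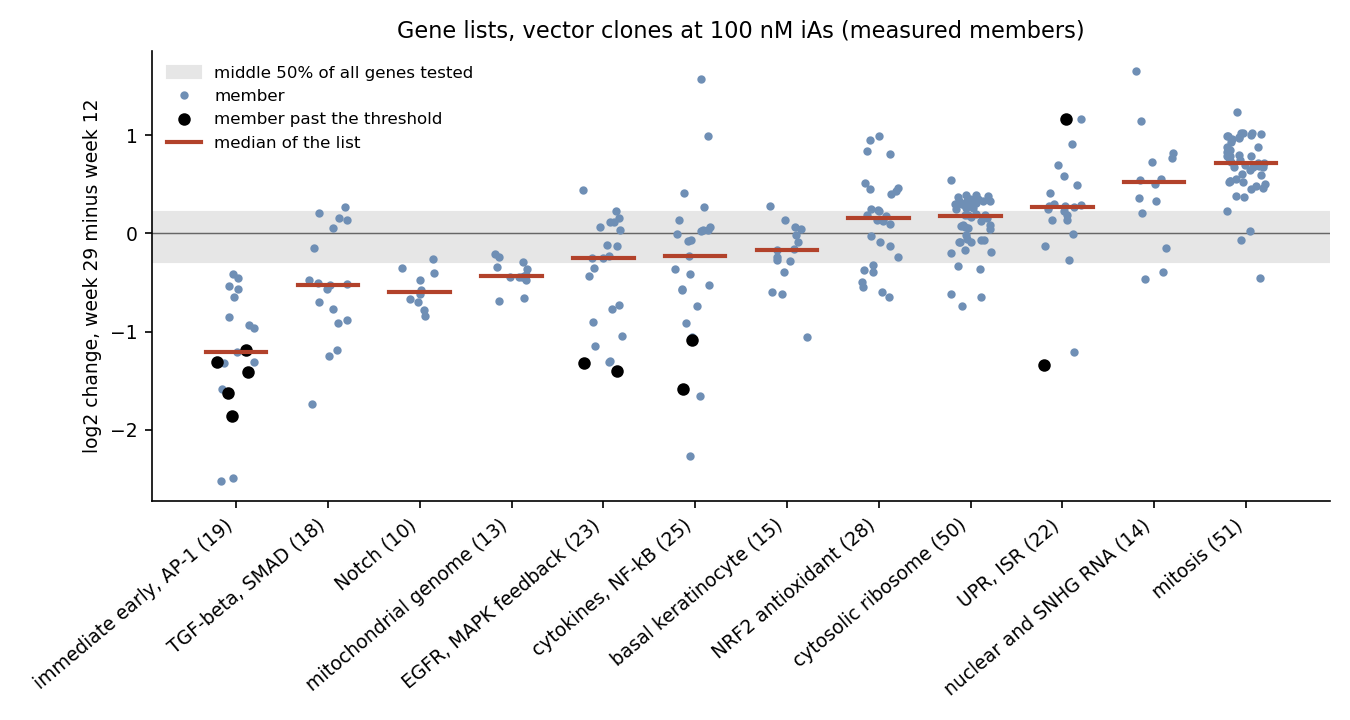
Change between weeks (log2) of every measured member of 12 gene lists, with the number of members in brackets, black points past the threshold and red bars at list medians. The medians run from −1.21 for immediate early genes to 0.72 for mitosis genes, and the grey band spans the middle 50% of all genes tested, −0.29 to 0.22.

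Other signalling lists had medians below 0 with 0 members past the threshold. The TGF-beta and SMAD list of 18 had a median of −0.52, which ran from −0.79 without week 12 replicate 3 to −0.38 without week 12 replicate 1. SMAD7, a feedback inhibitor of the pathway, was at 9.15, 15.2 and 5.42 FPKM at week 29, against 37.3, 41.4 and 20.2 FPKM at week 12 (−1.73 ± 0.39; limma, adjusted p = 0.0689). All 10 Notch genes lay below 0 with a median of −0.60, or −0.28 with the GC correction, and −0.42 to −0.68 without 1 library. The target HES1 was at 36.4, 35.8 and 39.4 FPKM at week 29, against 66.5, 64.3 and 52.6 FPKM at week 12 (−0.70 ± 0.26). The weeks did not overlap in SMAD7 or HES1. Of 16 YAP and TEAD genes 5 lay lower without overlap, beside 8% of all genes tested. The median was −0.13, and it ran from −0.25 without week 12 replicate 2 to −0.07 without week 29 replicate 3. Among them CCN2, a matricellular protein, was at 13.1, 6.805 and 12.8 FPKM at week 29, against 35.2, 21.15 and 23.2 FPKM at week 12 (−1.26 ± 0.33; limma, adjusted p = 0.124). Of 11 WNT genes the median was −0.33, and it ran from −0.69 without week 29 replicate 2 to −0.15 without week 29 replicate 3. Of 8 genes of the aryl hydrocarbon receptor it was −0.33, from −0.47 without week 29 replicate 1 to −0.21 without week 12 replicate 1. TIPARP, a target of that receptor, was at 44.5, 52.5 and 56.5 FPKM at week 29, against 129.8, 151 and 81.6 FPKM at week 12 (−1.19 ± 0.26; limma, adjusted p = 0.0582). It passed with the GC correction (limma, adjusted p = 0.0217). The circadian repressor BHLHE40, which is also induced by stress, was at 43.9, 39.4 and 35.3 FPKM at week 29, against 143, 108 and 81.7 FPKM at week 12 (−1.44 ± 0.31; limma, adjusted p = 0.0575). CLOCK, an activator of the circadian loop, was at 14.3, 14.4 and 21.6 FPKM at week 29, against 9.599, 8.63 and 10.4 FPKM at week 12 (0.76 ± 0.24; limma, adjusted p = 0.193). Of 16 circadian genes 3 lay higher and 4 lower without overlap, beside 8.88% and 8% of all genes. The median was −0.11, and it ran from −0.30 without week 12 replicate 3 to −0.05 without week 29 replicate 1.

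Of the genes that handle arsenic and oxidants none passed between the weeks. Among 28 antioxidant genes of NRF2 17 lay above 0 and the median was 0.16, from −0.01 without week 29 replicate 2 to 0.38 without week 12 replicate 3. GCLC, the ligase that starts glutathione synthesis, was at 146, 241 and 223 FPKM at week 29, against 68.4, 105 and 200.1 FPKM at week 12 (0.81 ± 0.31; limma, adjusted p = 0.260). The cystine carrier SLC7A11 was at 16.7, 19.2 and 27.3 FPKM at week 29, against 8.36, 6.06 and 20.2 FPKM at week 12 (0.99 ± 0.45; limma, adjusted p = 0.321). In both, week 12 replicate 3 was level with week 29. Of the 4 measured metallothioneins, which bind metals, MT1E was at 241, 219.7 and 281 FPKM at week 29, against 86.99, 127 and 218 FPKM at week 12 (0.87 ± 0.24; limma, adjusted p = 0.146). MT2A was at 186, 178.5 and 40.98 FPKM at week 29, against 95.99, 119 and 307 FPKM at week 12 (−0.45 ± 0.56). MT1E was higher at week 29 without overlap and MT2A overlapped, with its lowest and highest levels in week 29 replicate 3 and week 12 replicate 3. Of 11 genes of arsenic methylation and transport the median was −0.08, from −0.28 without week 12 replicate 1 to −0.04 without week 12 replicate 3. The efflux pump ABCB1 was at 0.687, 0.440 and 0.203 FPKM at week 29, against 1.00, 1.66 and 1.52 FPKM at week 12 (−1.02 ± 0.52; limma, adjusted p = 0.362). Of 20 heat shock genes 3 lay higher and 4 lower without overlap, beside 8.88% and 8% of all genes. The median was −0.06, and it ran from −0.07 without week 29 replicate 1 to 0.02 without week 29 replicate 2. The small heat shock protein HSPB8 was at 17.9, 17.6 and 17.2 FPKM at week 29, against 47.15, 34.9 and 35.9 FPKM at week 12 (−1.13 ± 0.34; limma, adjusted p = 0.168). The mitochondrial chaperone HSPD1 was at 275, 267 and 335 FPKM at week 29, against 210.4, 173 and 236 FPKM at week 12 (0.51 ± 0.16; limma, adjusted p = 0.180).

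No keratinocyte identity gene of the lists passed between the weeks. Of 15 basal genes 1 lay higher and 0 lower without overlap, beside 8.88% and 8% of all genes tested. The median was −0.16, from −0.26 without week 29 replicate 2 to −0.09 without week 29 replicate 3. Basal keratin KRT14 was at 864, 914 and 328 FPKM at week 29, against 685.5, 1043 and 1320 FPKM at week 12 (−0.62 ± 0.49). Of 13 measured genes of differentiation 0 lay higher and 2 lower without overlap, beside the same shares of all genes. The median was −0.19, from −0.38 without week 12 replicate 1 to 0.20 without week 12 replicate 3. The barrier protein FLG was lower without overlap, at 1.17, 2.825 and 0.956 FPKM at week 29, against 3.89, 10.55 and 3.46 FPKM at week 12 (−1.52 ± 0.49; limma, adjusted p = 0.197). IVL, an early cornified envelope protein, spread widely at week 12, with 24.5, 57.6 and 17.98 FPKM at week 29, against 82.6, 262 and 26.1 FPKM at week 12 (−1.48 ± 0.97). The median was 0.11 for 24 junction genes, 0.20 for 12 stress keratins and alarmins, 0.07 for 5 simple epithelial keratins and −0.21 for 17 mesenchymal genes. Without week 12 replicate 2 these were 0.06, −0.38, −0.20 and −0.47. Of 40 interferon genes 20 lay above and 20 below 0. OASL, an antiviral protein, was at 11.4, 14.4 and 7.32 FPKM at week 29, against 3.21, 3.34 and 6.89 FPKM at week 12 (1.24 ± 0.39; limma, adjusted p = 0.182). IFITM3, which restricts virus entry, was at 378, 371 and 135 FPKM at week 29, against 605, 514 and 696 FPKM at week 12 (−1.17 ± 0.37; limma, adjusted p = 0.192), lowest in week 29 replicate 3. Of 15 genes of MHC class I presentation 14 lay below 0 with a median of −0.35, or −0.17 with the GC correction. Without week 29 replicate 2 that median was −0.16, without week 12 replicate 1 −0.23 and without week 12 replicate 2 −0.51. NLRC5, which drives MHC class I transcription, was at 5.36, 5.72 and 4.42 FPKM at week 29, against 12.7, 8.35 and 6.55 FPKM at week 12 (−0.73 ± 0.25; limma, adjusted p = 0.226).

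The remaining lists had 0 members past the threshold, and their medians lay between −0.53 and 0.28. For 28 genes of cholesterol and fatty acid synthesis the median was 0.28 with 20 above 0, and for 21 p53 targets it was −0.08. SQLE, an epoxidase of cholesterol synthesis, was at 51.5, 22.8 and 43.7 FPKM at week 29, against 22.4, 17.2 and 22.2 FPKM at week 12 (0.85 ± 0.33; limma, adjusted p = 0.272). The weeks did not overlap in it, with the lowest level in week 12 replicate 2. For 18 Polycomb genes the median was −0.01, with BMI1, EED and RBBP7 higher without overlap, beside 8.88% of all genes tested. BMI1, a subunit of the complex that marks histone H2A, was at 17.9, 21.4 and 41.3 FPKM at week 29, against 13.8, 13.5 and 15.7 FPKM at week 12 (0.80 ± 0.31; limma, adjusted p = 0.261). For 16 other chromatin modifiers the median was −0.11, and the deacetylase HDAC2 was at 76.6, 78.6 and 101.5 FPKM at week 29, against 72.5, 61.00 and 65.3 FPKM at week 12 (0.36 ± 0.14; limma, adjusted p = 0.271). For 12 genes of microRNA processing the median was 0.05, and DICER1, which cuts precursors, was at 23.8, 23.4 and 28.00 FPKM at week 29, against 22.8, 22.4 and 20.05 FPKM at week 12 (0.20 ± 0.19; limma, adjusted p = 0.619). The median was −0.10 for 30 genes of hypoxia and glycolysis, −0.21 for 16 histone genes, 0.02 for 12 iron genes and −0.53 for 7 imprinted genes. PHLDA2, an imprinted growth regulator, was at 1.21, 1.29 and 0.494 FPKM at week 29, against 1.65, 1.405 and 2.85 FPKM at week 12 (−0.73 ± 0.34; limma, adjusted p = 0.337). Of these medians only that of the imprinted genes moved by less than 1.5 times in every fit without 1 library, from −0.59 to −0.35.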

How the data were processed

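RNA of HaCaT clones was made into TruSeq stranded mRNA libraries and sequenced paired-end, per the labels' protocols. The authors aligned reads with STAR 2.6.0c to hg38 and computed FPKM with Cuffdiff 2.2.1, per the submitters' processing notes, and deposited 1 table of FPKM for 24 libraries. The annotation and strand setting are not given in the sources used here, and no counts were used, so depth and counting error are unknown.

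From the deposited FPKM, log2(FPKM + 0.5) was fitted for 14228 genes that averaged 0.5 FPKM or more, and this was done with limma 3.58.1 (R 4.3.3) on all 8 groups, with an intensity trend, robust moderation and Benjamini-Hochberg adjustment at 0.05. The fit was tested on simulated data with independent noise in each library. Shared clones, unequal spread between groups and a GC trend in a single library were not simulated. The GC correction removes from each library a natural spline with 5 degrees of freedom over GC content of the longest GENCODE 29 transcript. Promoters were searched as letters.

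Named genes are, among genes past the threshold without overlap and with at least 1 FPKM, the 15 largest rises and falls, the 10 smallest p also past with the GC correction, up to 4 members of smallest p of each described list, and 5 in each direction of the difference of changes. The other calls and FOS, FOSB, NR4A1, EGR2, JUNB, EGFR, DUSP6, NFKB1, ATF4, TRIB3, HSPA5, MARS1, MAN2C1, DDIT4, CDC20 and KRT14 were chosen after their values were seen. The comparison and the 45 gene lists were chosen with earlier results of these data known. Alternatives were the pseudocount, the filter, median ratio scaling, the GC correction, the libraries fitted, the moderation, a replicate block and leaving out each library.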

Additional observations from a re-analysis of the deposited data

How the results depend on the processing

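Beside the 26 genes past the threshold between weeks in vector clones in arsenic, other pseudocounts (0.1, 1) and filters (none, 1 FPKM), median ratio scaling, moderation without a trend and the GC correction gave 23 to 36. Leaving out 1 library gave 7 to 128, the fit of the 6 libraries alone 0, and the GC correction without week 29 replicate 3, added after the data were seen, 8. The cause of these differences was not tested, beyond the fewer libraries. All 26 genes kept their sign under every alternative run. The difference between the changes in arsenic and at 0 nM gave 0 calls in every alternative, including those without 1 of the 12 vector libraries. Of 42 list medians, 28 kept their sign throughout.

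The replicate numbers were not taken as pairs: correlations of deviations from the group means for numbers 1, 2 and 3 were −0.14, 0.29 and −0.24 (−0.03, 0.42 and −0.03 with the GC correction), and only number 2 correlated best with itself. Week 29 replicate 1 with week 12 replicate 3 gave 0.37, and week 29 replicate 3 with week 12 replicate 1 gave 0.39. On chromosomes 6 and 20 the same number was low at both weeks in most windows, so shared clones are a hint from the data, not the labels. A replicate block gave 338 calls (127 rises, 211 falls), and a block with the GC correction 204 (76 and 128).

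Limits are 3 clones of 1 line per group, a GC trend in week 29 replicate 3, a week 12 replicate 3 with the lowest week 12 level of 16 of 19 early genes, FPKM with no counts behind them, and no library from before exposure analysed here. What the spread of the week 12 clones comes from was not tested.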

Other observations

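Genes of chromosome 6 lay low together in single libraries at both weeks. Medians were taken in 20 Mb windows, with the GC correction and relative to the week 12 mean. For the 83 genes of the first window of chromosome 6 (1 to 20000000, GRCh38) they were 0.21, −0.29 and 0.24 in week 29 replicates 1, 2 and 3. In week 12 replicates 1, 2 and 3 they were 0.16, −0.38 and 0.20. Replicate 2 was thus the lowest library at both weeks. In all 7 windows of chromosome 6, which hold 679 tested genes, week 12 replicate 2 was the lowest of week 12, and in 6 of the 7 week 29 replicate 2 was the lowest of week 29. Of the 10 windows with the widest range over the 6 libraries, 6 lay on chromosome 6. In all 4 windows of chromosome 20, replicate 3 was the lowest library at week 29 and also at week 12, and in 3 of them the week 12 one was the lowest of the 6. Between the weeks, window medians of the mean change ran from −0.13 to 0.17 over 138 windows, and none passed 0.2 in either direction. Single libraries lay further out. On chromosome 4, week 29 replicate 3 was at 0.31 (80000001 to 100000000), 0.33 (100000001 to 120000000) and 0.25 (140000001 to 160000000). There the week 12 libraries lay between −0.10 and 0.05 and the other week 29 libraries between 0.01 and 0.08. On chromosome 7 (140000001 to 160000000) week 29 replicate 3 was at −0.31, against −0.09 to 0.07 at week 12. The early genes IER3, PIM1 and TNFAIP3 lie on chromosome 6, and as in all 26 genes past the threshold their weeks did not overlap. Whether the low level of chromosome 6 in replicate 2 bears on their change was not tested.

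Some wide changes came from single libraries and did not pass. The ribosomal protein pseudogene RPL39P5 had 0.255, 1.16 and 0 FPKM in the week 29 libraries and 1.76, 356 and 0.129 FPKM in the week 12 libraries, so that 1 library of week 12 held nearly all of it, and RPL39P3 had 0, 0 and 64.8 FPKM in the week 29 libraries and was listed at 0 in all 3 libraries of week 12. Reads of such near copies cannot be assigned with certainty.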
